A study of Sus scrofa with 22 samples.

Results

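The genes described here are IFNAR2, IL10RB, IFNAR1 and IFNGR2, which form the receptor cluster on pig chromosome 13, with IFNGR1 on chromosome 1 and the kinase genes JAK1 (chromosome 6), JAK2 (chromosome 1) and TYK2 (chromosome 2). They were taken by name and NCBI gene ID and not by a cut on measured values, but with earlier results of these data known. All 8 are among the 12401 genes listed in at least 1 of the 3 count tables, and all 8 are listed in every table. RNA-seq libraries were made from 3 compartments of frozen pig endometrium at Day 12, which were cut out by laser capture: the luminal epithelium (LE), the epithelium of the glands (GE) and stromal areas (S), where fibroblasts lie among immune cells. The control group was 4 cyclic gilts inseminated with the supernatant of spun semen, which carried no pregnancy, and the pregnant group was 4 gilts inseminated with semen of that boar, whose uterine flushings held filamentous conceptuses. All 8 gilts were crossbred (German Landrace and Piétrain) and prepuberal when bought, and their ovulation was synchronised with PMSG and hCG, so the controls are hormone-treated cycles. LE and GE had 1 library from each of the 8 gilts, and S had 1 library from each of 3 control and 3 pregnant gilts.

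Interferons act through receptors that each join a pair of chains. Type I interferons use IFNAR1 and IFNAR2, interferon gamma uses IFNGR1 to bind and IFNGR2 to signal, and the lambda interferons use IFNLR1 with IL10RB, which also serves interleukin-10 and interleukin-22. The chains carry no kinase of their own: TYK2 and JAK1 serve IFNAR1, IFNAR2 and the IL10RB receptors, JAK1 and JAK2 serve IFNGR1 and IFNGR2, and the kinases activate STAT proteins. In the pig, the elongating conceptus secretes interferon gamma and interferon delta toward the uterine lining around this stage.

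The libraries held 893912 to 4020796 counts, so that 3 counts, taken as the least that can be told from 0, correspond to 0.746 to 3.36 CPM (the count scaled to a library of 1000000 counts). The lowest count of a member in a library was 13, and this limit was not reached. All 12 epithelial markers (keratins, claudins, EPCAM and others) were listed in every cell type. Their summed level was 3641 to 4323 CPM in control LE and 4255 to 5680 CPM in pregnant LE, but also 3353 to 4156 CPM in the control libraries labelled S. The 12 fibroblast markers (collagens, DCN, LUM and others) summed to 5819 to 10100 CPM in control S, below the 13610 to 19950 CPM of control LE, so that the fibroblast markers were lower in control S than in control LE, opposite to the label. In the pregnant S libraries, the epithelial sum was 1422, 5127 and 3228 CPM in gilts 01, 05 and 14, and the fibroblast sum was 64160, 8886 and 13310 CPM. Control GE of gilt 02 also stood apart, with an epithelial sum of 925.6 CPM and a fibroblast sum of 49150 CPM. Of the 14 leukocyte markers, 6 were listed in LE and 7 in GE and S, with sums from 76.8 to 239 CPM over all libraries, and the T cell genes CD3E and CD3D were not listed. In LE the leukocyte sum was 98.6 to 209 CPM in control gilts and 76.8 to 82.0 CPM in pregnant gilts. Of the 4 gland markers, FOXA2 was listed in GE and S but not in LE, and the sums of those listed were 112 to 369.5 CPM in GE, 54.6 to 247 CPM in LE and 86.3 to 350.1 CPM in S, with overlapping ranges. The 4 smooth muscle markers listed in LE summed to 166 to 717 CPM in control LE and to 168 to 285 CPM in pregnant gilts 03, 05 and 14, but to 5178 CPM in pregnant LE of gilt 01, and 7 such markers summed to 9022 CPM in control GE of gilt 02. The 9 listed endothelial markers summed to 685 to 996 CPM in control LE and to 648 to 1546 CPM in pregnant LE, and to 1895 CPM in pregnant S of gilt 01 against 288.5 to 523 CPM in control S. The term S below stands for the libraries as labelled.

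The 4 receptor genes of the cluster lie in a row on the plus strand of chromosome 13 (Sscrofa11.1), over 269.7 kb from position 196765915 to 197035604. IFNAR2 (gene ID 100533555) spans 196765915 to 196852640, IL10RB (396657) 196853606 to 196884237, IFNAR1 (396658) 196925731 to 196951398 and IFNGR2 (100126864) 197007303 to 197035604. None of their exons overlaps or shares a 50-base stretch with another gene's exons. The only member with such an overlap was JAK1, where 259 bases of exon (4.42%) lie opposite RAVER2, and whether the counting used strand is not given in the sources used here. The upstream sequences of the 4 cluster genes are shown because these neighbours moved together in LE, as described below. Each is the 250 bases before the gene's annotated 5′ end, read 5′ to 3′ on the gene's strand from the Sscrofa11.1 genome with RefSeq gene models, and the capitals mark every match to 1 of 9 short motifs.
IFNAR2, chr13:196765665-196765914: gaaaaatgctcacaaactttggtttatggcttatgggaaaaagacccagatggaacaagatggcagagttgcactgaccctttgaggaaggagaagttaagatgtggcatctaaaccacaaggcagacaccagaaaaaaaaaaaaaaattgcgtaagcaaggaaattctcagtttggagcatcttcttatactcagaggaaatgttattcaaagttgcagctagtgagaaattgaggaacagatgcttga
IL10RB, chr13:196853356-196853605: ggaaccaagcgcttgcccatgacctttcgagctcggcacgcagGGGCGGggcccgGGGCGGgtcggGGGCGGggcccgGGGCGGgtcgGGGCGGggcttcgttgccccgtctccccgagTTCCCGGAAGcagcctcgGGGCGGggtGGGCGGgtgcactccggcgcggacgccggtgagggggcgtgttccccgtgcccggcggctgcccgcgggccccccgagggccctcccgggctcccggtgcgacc
IFNAR1, chr13:196925481-196925730: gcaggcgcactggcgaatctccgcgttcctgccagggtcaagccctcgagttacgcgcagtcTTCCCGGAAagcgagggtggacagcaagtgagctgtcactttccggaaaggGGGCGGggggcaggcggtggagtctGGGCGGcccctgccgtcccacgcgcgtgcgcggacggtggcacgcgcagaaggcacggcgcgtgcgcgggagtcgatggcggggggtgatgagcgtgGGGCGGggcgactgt
IFNGR2, chr13:197007053-197007302: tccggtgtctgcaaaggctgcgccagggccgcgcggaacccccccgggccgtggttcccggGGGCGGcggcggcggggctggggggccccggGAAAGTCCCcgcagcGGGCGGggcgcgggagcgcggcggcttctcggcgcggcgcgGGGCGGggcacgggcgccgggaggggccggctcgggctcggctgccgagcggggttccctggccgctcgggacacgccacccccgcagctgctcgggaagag
These windows do not look alike. Those of IL10RB, IFNAR1 and IFNGR2 had a GC content of 80.8%, 71.2% and 82.8% with 35, 32 and 40 CpG dinucleotides, while that of IFNAR2 had 39.2% and 1 CpG. Over the same window of 19549 protein-coding genes, the median was 57.6% GC and 12 CpG. Several annotated IFNAR2 models begin further inside the gene, so that the window shown is only that of the outermost model.

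The motifs were searched on both strands. The letters of a gamma-activated site (TTCNNNGAA), the site bound by STAT dimers, were found as TTCCCGGAA upstream of both IFNAR1, at bases -188 to -180, and IL10RB, at -131 to -123, and once upstream of IFNGR1, as TTCCTCGAA. Of all windows, 6.11% held this motif. In IL10RB it overlaps an ETS site (CCGGAAG, 7.78% of all windows), which JAK1 also held. The NF-kappa-B core GGGANNTTC (4.63%) was found upstream of IFNGR2 alone among the members. The GC box GGGCGG (45.9%) was found upstream of IL10RB, IFNAR1, IFNGR2, JAK2 and TYK2, and CCAAT (31.9%) upstream of IFNGR1 and TYK2. The AP-1 site TGANTCA (5.25%) was found only upstream of JAK2. No member's window held the core of the interferon-stimulated response element (GAAANNGAA, 6.7%), the inner letters of the estrogen response element (TCANNNTGA, 4.11%) or TATAAA (9.75%). A match describes letters only, and no measurement of binding was made in these samples.

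In LE, all 4 genes of the chromosome 13 cluster rose strongly in pregnancy, whereas IFNGR1 and the 3 kinases did not pass the test. IFNAR1, which pairs with IFNAR2 in the type I receptor, was at 149, 184, 181 and 131 CPM in control gilts 02, 04, 06 and 13. In pregnant gilts 01, 03, 05 and 14 it was at 627, 1096, 1269 and 821.5 CPM. Every pregnant library was above every control library, with a log2 fold change (log2 FC) of 2.56 ± 0.25 (SE), or 5.92-fold (edgeR quasi-likelihood test, FDR = 0.000128). IFNAR2, the high-affinity chain, was at 24.0, 35.8, 22.6 and 29.5 CPM in the control gilts, in the same order, and at 162, 267, 275 and 175 CPM in the pregnant gilts. The groups did not overlap, and the log2 FC was 2.97 ± 0.25 (7.85-fold, edgeR FDR = 6.48e-05). Pregnant gilts 03 and 05 were the highest for both chains of this receptor.

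IL10RB, the chain shared by the interleukin-10, interleukin-22 and lambda interferon receptors, was at 15.5, 16.8, 10.8 and 12.2 CPM in control LE and at 109, 153, 114 and 87.2 CPM in pregnant LE. It had the largest log2 FC of the members, 3.06 ± 0.23 (8.33-fold, edgeR FDR = 5.13e-05). IFNGR2, the signalling chain for interferon gamma, was at 19.9, 20.3, 15.7 and 13.6 CPM in control LE and at 93.4, 293, 121 and 57.2 CPM in pregnant LE. All pregnant values were again above all control values, but gilt 03 was far above the other pregnant gilts, and the log2 FC of 3.02 had an SE of 0.46 (8.13-fold, edgeR FDR = 0.00147). Without gilt 03 the log2 FC of IFNGR2 was 2.38 and still called, and in the 6 gilts with an S library it was 2.34. The 4 calls compare with 6.33% of the 11415 genes tested in LE that were called higher in pregnancy. Genes with all pregnant LE libraries above all control LE libraries made up 14% of those tested. The epithelial marker sum of 3 of the 4 pregnant LE libraries was also above all control LE libraries, and the smooth muscle and endothelial sums were highest in pregnant LE of gilt 01. The leukocyte sum of every pregnant LE library was below that of every control LE library. The part of these in the results was not tested. Of the 9 listed endothelial markers 0 passed the test in LE and 1 had a log2 FC below 0 (VWF, -0.15). Among them PECAM1 had non-overlapping, higher ranges in pregnant LE (log2 FC 0.91, FDR = 0.0253). Of the 4 listed smooth muscle markers 0 passed and 1 was below 0 (MYH11, -0.05). ACTA2 had a log2 FC of 4.06 with overlapping ranges (FDR = 0.0311). Of the 12 fibroblast markers 1 was called higher (FBN1, 0.87, FDR = 0.00800). The log2 FC was below 0 for 4 fibroblast markers, among them DCN (-0.67) and LUM (-0.64). Among the epithelial markers MUC1, CLDN3, CLDN4 and CDH1 rose and KRT7, KRT8, KRT19 and GRHL2 fell. Fewer cells of a type and less RNA per cell cannot be told apart in such libraries.

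**Figure D1:**
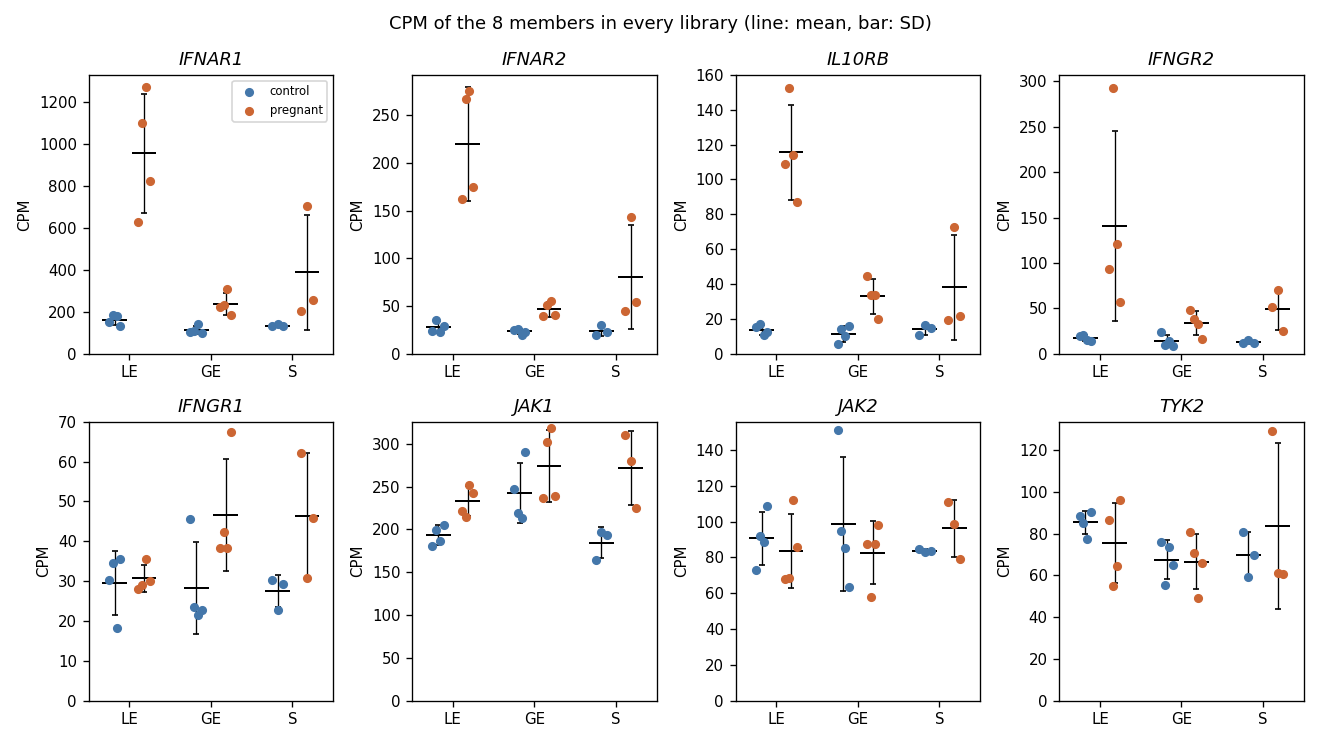
CPM (own scaling of each table, axis from 0) of the 8 members in every library, with points for gilts, lines for group means and bars for the SD. The 4 cluster genes in the upper row separate control (blue) from pregnant (orange) LE, with IFNAR1 between 627 and 1269 CPM in pregnant LE, while IFNGR1, JAK2 and TYK2 overlap between the groups in LE.

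IFNGR1, the partner that binds interferon gamma, stayed outside this pattern. It was at 30.3, 34.5, 18.1 and 35.4 CPM in control LE and at 28.0, 29.1, 35.7 and 30.0 CPM in pregnant LE. The pregnant values lie within the control range except for that of gilt 05, and the log2 FC was 0.06 with a 95% interval from -0.47 to 0.58 (edgeR FDR = 0.885). This interval lies wholly below that of IFNGR2, which ran from 2.0 to 4.05. JAK1, the kinase common to these receptors, was at 180 to 206 CPM in control LE and at 214.5 to 252 CPM in pregnant LE. Its ranges did not overlap, but the log2 FC of 0.27 (-0.04 to 0.58) did not pass the test (edgeR FDR = 0.194). JAK2, which serves the interferon gamma receptor, had a log2 FC of -0.11 (-0.57 to 0.35), and TYK2, which serves IFNAR1 and IL10RB, -0.18 (-0.62 to 0.25).

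In GE, the same 4 genes were higher in pregnant gilts by smaller amounts, and 2 of them passed the study's cut-off of an unadjusted p of 0.0021. IFNAR1 was at 104, 109, 140 and 100.2 CPM in control GE (gilts 02, 04, 06 and 13) and at 225, 232, 308 and 186 CPM in pregnant GE (gilts 01, 03, 05 and 14). The groups did not overlap, and the log2 FC was 1.07 ± 0.21 (2.10-fold, edgeR FDR = 0.204). IFNAR2 was at 25.1, 26.2, 19.7 and 23.2 CPM in control GE and at 39.9, 51.0, 54.8 and 40.3 CPM in pregnant GE. Here too the groups were apart, with a log2 FC of 0.98 ± 0.20 (1.98-fold, edgeR FDR = 0.216). In GE 0.574% of the 11676 genes tested were called higher, and neither gene passed after adjustment over all genes.

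IL10RB was at 5.35, 14.3, 10.00 and 15.9 CPM in control GE and at 44.4, 33.5, 33.9 and 19.8 CPM in pregnant GE. These ranges did not overlap, as for 2.72% of all genes in GE, but the log2 FC of 1.52 ± 0.38 missed the cut-off (edgeR FDR = 0.327). IFNGR2 was at 23.9, 9.54, 13.6 and 8.91 CPM in control GE and at 48.5, 38.3, 33.0 and 16.3 CPM in pregnant GE, with a log2 FC of 1.28 ± 0.42 (edgeR FDR = 0.468). The overlap came from control gilt 02, the library with the high fibroblast sum, and pregnant gilt 14. IFNGR1 had a log2 FC of 0.72 (0.00 to 1.44, edgeR FDR = 0.615). JAK1, JAK2 and TYK2 had log2 FC of 0.18 (-0.25 to 0.60), -0.26 (-0.91 to 0.40) and -0.02 (-0.48 to 0.44). The GE calls rested on few libraries. IFNAR1 missed the cut-off without control gilt 04 (log2 FC 1.05), control gilt 13 (1.01) or pregnant gilt 05 (0.90). IFNAR2 missed it without control gilts 06 (0.92) or 13 (0.98) or pregnant gilts 03 (0.93) or 05 (0.88), while IL10RB was called without pregnant gilt 14 (1.70). The exact test, the likelihood ratio test and DESeq2 each called 3 members in GE. Over all 11676 genes they called 174, 185 and 241 in either direction, against 81 in the quasi-likelihood test.

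In S, no member passed the cut-off in the edgeR quasi-likelihood test, although 5 of the 8 had an unadjusted p below 0.05, as had 12.5% of all genes. IFNAR1 was at 132, 140.3 and 130.3 CPM in control gilts 02, 04 and 13, and at 203, 702.5 and 256 CPM in pregnant gilts 01, 05 and 14. The ranges did not overlap, yet gilt 05 was far above the other pregnant gilts, and the log2 FC was 1.53 ± 0.48 (edgeR FDR = 0.268). IFNAR2 showed the same order, with 19.3, 30.4 and 23.1 CPM in control S and 44.5, 143 and 54.2 CPM in pregnant S (log2 FC 1.74 ± 0.49, edgeR FDR = 0.229). IL10RB was at 10.6, 16.4 and 15.0 CPM in control S and at 19.4, 73.0 and 21.8 CPM in pregnant S (log2 FC 1.45 ± 0.56, edgeR FDR = 0.353).

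Pregnant gilt 05 had both the highest values of these 3 genes and the highest epithelial marker sum in S, and the part of the latter was not tested. Without that library the log2 FC was 0.77 for IFNAR1, 1.01 for IFNAR2 and 0.54 for IL10RB. IFNGR2 came closest to the cut-off, with 12.2, 15.2 and 11.7 CPM in control S and 51.8, 70.3 and 25.4 CPM in pregnant S (log2 FC 1.91 ± 0.41, edgeR FDR = 0.139). Without pregnant gilt 14 IFNGR2 was called (log2 FC 2.23, FDR = 0.0621), and without gilt 05 its log2 FC was 1.54. The edgeR exact test, the likelihood ratio test and DESeq2 each called 2 members in S, IFNAR2 and IFNGR2. Over all 11532 genes they called 428, 463 and 512 in either direction, against 170 in the quasi-likelihood test.

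IFNGR1 was at 22.8 to 30.3 CPM in control S and at 62.3, 30.8 and 46.0 CPM in pregnant gilts 01, 05 and 14, an order opposite to that of IFNAR1. Its log2 FC was 0.75 (-0.02 to 1.51) and was 0.46 without pregnant gilt 01 and 0.97 without pregnant gilt 05. JAK1 was at 164 to 196 CPM in control S and at 225 to 310 CPM in pregnant S (log2 FC 0.56, 0.00 to 1.11, edgeR FDR = 0.398). JAK2 and TYK2 had log2 FC of 0.20 (-0.32 to 0.72) and 0.25 (-0.58 to 1.08). In all, 6 members had non-overlapping and higher ranges in pregnant S, against 8.18% of the 11532 genes tested, and 0.425% of genes were called higher.

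**Figure D2:**
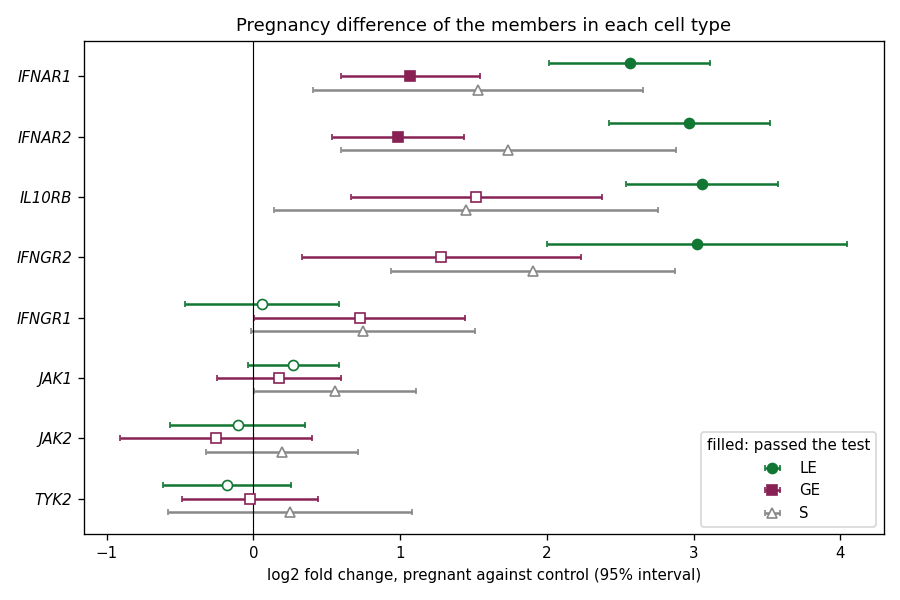
Log2 fold change of pregnant against control gilts for each member in LE (circles), GE (squares) and S (triangles), with 95% intervals and filled symbols for values that passed the test. The 4 cluster genes lie between 2.56 and 3.06 in LE and between 0.98 and 1.91 in GE and S, while all intervals of JAK2 and TYK2 cross 0.

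**Figure D3:**
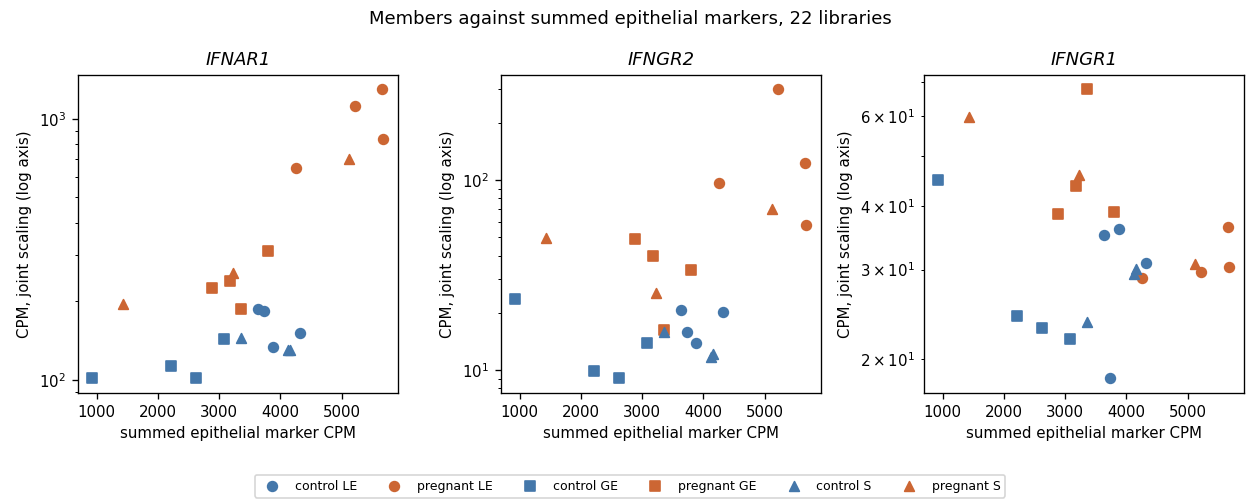
Member level (CPM with joint scaling, log axis) against the summed CPM of 12 epithelial markers in each of the 22 libraries, with shapes for cell types and colours for groups. Pregnant S of gilt 05, at a marker sum of 5127 CPM and 702 CPM of IFNAR1, lies within the range of pregnant LE for IFNAR1 (647 to 1296 CPM), whereas the control LE and control S libraries, with sums from 3353 to 4323 CPM, reach at most 187.5 CPM.

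A joint fit of all 22 libraries over the 10643 genes listed in every table, with the gilt as a block, compared the cell types. In control gilts 0 members were called between GE and LE at an FDR of 1%, by this edgeR test or the likelihood ratio test, while 1.84% of all genes were called in either direction. IFNAR1 (log2 difference GE minus LE of -0.51, -0.92 to -0.11) and JAK1 (0.32, 0.02 to 0.62) had an unadjusted p below 0.05, as had 27.9% of all genes, a share close to that of the members. Between S and LE, and between S and GE, 0 genes were called in control gilts (edgeR quasi-likelihood test), and the likelihood ratio test called 4 and 286 genes with 0 members. At an unadjusted p below 0.05 there were 692 genes and 0 members for S against LE, and 1891 genes with 1 member, JAK1, for S against GE.

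In pregnant gilts, by contrast, the cluster genes were lower in GE than in LE. The log2 difference was -1.98 ± 0.19 for IFNAR1 (edgeR FDR = 9.69e-05), -2.22 ± 0.19 for IFNAR2 (FDR = 2.93e-05), -1.84 ± 0.33 for IL10RB (FDR = 0.00139) and -1.90 ± 0.29 for IFNGR2 (FDR = 0.000578). All 4 were called, against 7.91% of genes called lower in GE. The IL10RB call was lost without gilt 03 (FDR = 0.0134) or gilt 14 (FDR = 0.0116). IFNGR1 went the other way without passing the test (0.55, 0.00 to 1.09, FDR = 0.120). S of pregnant gilts was also below LE, for IFNAR1 by -1.45 ± 0.22 (edgeR FDR = 0.00204) and for IFNAR2 by -1.53 ± 0.21 (FDR = 0.00146), where 0.817% of genes were called lower. IL10RB (-1.67 ± 0.38, FDR = 0.0132) and IFNGR2 (-1.15 ± 0.32, FDR = 0.0292) were not called. Both S calls were lost without gilt 01 (FDR = 0.0161 for IFNAR1 and 0.0173 for IFNAR2) or gilt 14 (0.0286 and 0.0187), and without the replicate block (0.0232 and 0.0144), whereas IL10RB was called without gilt 05 (FDR = 0.00664). Between S and GE of pregnant gilts 0 genes were called (edgeR), with 310 genes and 3 members (IFNAR1, IFNAR2 and IFNGR2) at an unadjusted p below 0.05 and 0 genes by the likelihood ratio test.

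Whether the pregnancy effect itself differed between cell types was tested as an interaction. The effect on IFNAR2 was smaller in GE than in LE by 1.99 ± 0.26 on the log2 scale (edgeR FDR = 0.00538), where 0.15% of genes were called in that direction. The same difference did not pass for IFNAR1 (-1.47 ± 0.27, FDR = 0.0133), IFNGR2 (-1.55 ± 0.41, FDR = 0.0596) and IL10RB (-1.53 ± 0.48, FDR = 0.106). The IFNAR2 call was lost without gilt 02 (FDR = 0.0177), 03 (0.0293), 04 (0.0369) or 06 (0.013), and without the replicate block (0.0465). Between S and LE the interaction was -1.27 for IFNAR1 (edgeR FDR = 0.113), -1.22 for IFNAR2 (FDR = 0.116), -1.58 for IL10RB (FDR = 0.195) and -0.74 for IFNGR2 (FDR = 0.475), and 0 members were called (edgeR), with 3 at an unadjusted p below 0.05 and 0 by the likelihood ratio test. Of all genes, 2 were called, 15.2% had an unadjusted p below 0.05, and the likelihood ratio test called 82. Between S and GE 0 genes were called (edgeR), with 1054 genes and 1 member, IFNAR2, at an unadjusted p below 0.05, and the likelihood ratio test called 22 genes and 0 members.

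Levels of different genes were compared as CPM per kb of annotated exon. In control LE, IFNAR1 was the highest at 45.1 ± 7.1 (SD, n = 4), followed by JAK1 at 33.5 ± 2.0, TYK2 at 16.2 ± 1.1 and IL10RB at 12.9 ± 2.6. Below these came JAK2 at 9.95 ± 1.62, IFNGR2 at 9.58 ± 1.83, IFNAR2 at 8.46 ± 1.82 and IFNGR1 at 5.65 ± 1.53 CPM per kb. The gilts' ranges of TYK2 and IL10RB overlapped, as did those of IL10RB and the next 3 genes, while IFNGR1 (3.45 to 6.77) lay just below IFNAR2 (6.82 to 10.8). In pregnant LE the order was IFNAR1 at 268 ± 80, IL10RB at 109 ± 26, IFNGR2 at 78.2 ± 58.0, IFNAR2 at 66.8 ± 18, JAK1 at 40.6 ± 2.9, TYK2 at 14.4 ± 3.6, JAK2 at 9.21 ± 2.25 and IFNGR1 at 5.89 ± 0.64 CPM per kb. All 4 cluster genes thus had a mean above that of JAK1 there, although the range of IFNGR2 (31.4 to 162) overlapped those of IL10RB, IFNAR2 and JAK1. In pregnant GE the means were 66.3 for IFNAR1, 30.7 for IL10RB, 18.7 for IFNGR2 and 14 for IFNAR2, and JAK1 at 47.5 CPM per kb stood above the last 3 of these. IL10RB has the shortest gene model of the members, with 1089 bases, and its level per kb depends on that length.

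**Figure D4:**
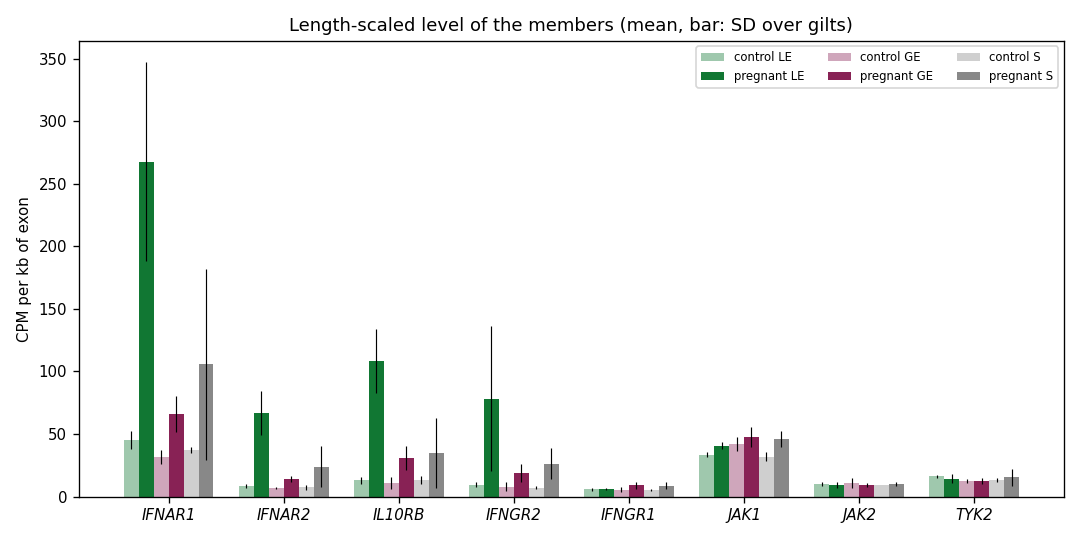
Mean level of each member in CPM per kb of annotated exon (bars, axis from 0) with the SD over gilts, by cell type and group. IFNAR1 reaches 268 CPM per kb in pregnant LE from 45.1 in control LE, whereas the bars of IFNGR1 stay between 5.20 and 8.86 CPM per kb in all 6 groups.

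The chains of a receptor moved together for type I interferons and apart for interferon gamma. Per kb and library, the ratio of IFNAR2 to IFNAR1 was 0.191 ± 0.046 (SD) in control LE and 0.252 ± 0.024 in pregnant LE, with overlapping ranges, and its group means lay between 0.191 and 0.252 in all cell types. The ratio of IFNGR2 to IFNGR1 was 1.90, 1.70, 2.5 and 1.11 in control LE and 9.63, 29.1, 9.77 and 5.51 in pregnant LE. In GE it was 1.13 to 1.84 in control gilts and 0.696 to 3.65 in pregnant gilts, and in S 1.16 to 1.93 and 1.60 to 6.59, so that the groups overlapped in both. These ratios do not depend on the scaling of the libraries, and they describe the values tested above.

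Over the 22 libraries, the correlation of log2 CPM between 2 genes of the cluster was 0.878 to 0.977 in the 6 pairs. After the mean of each of the 6 groups was removed it was 0.356 to 0.818. The 16 pairs of a cluster gene with IFNGR1 or a kinase had correlations from -0.307 to 0.352, and the 6 pairs among IFNGR1 and the kinases from -0.175 to 0.395. After the group means were removed, these ranges were -0.657 to 0.351 and -0.0511 to 0.511, in the same order. The last range overlaps that of the cluster pairs. These libraries share gilts, depth and pregnancy status, and the values are descriptive. Of the other 10642 genes, IFNAR2 was the one most like IFNAR1 (r = 0.977), and IFNAR1 the one most like IFNAR2. Next to IFNAR1 came NT5DC3 (0.964) and PSMD12 (0.955), and next to IFNAR2 came PCYT1A (0.964) and GAB1 (0.961), the last an adaptor of growth factor receptors. IL10RB was most like NIPA2 (0.960) and MRS2 (0.958), magnesium transporters, and GAB1 (0.951). IFNGR2 was most like PLS3 (0.959), an actin-bundling protein, UBASH3B (0.951) and SCPEP1 (0.948), with IFNAR2 at rank 29. IFNGR1, JAK1, JAK2 and TYK2 had as nearest genes KDELR2 (0.778), GLIPR2 (0.842), IGF1 (0.781) and RUBCNL (0.805).

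The rise in LE was not spread evenly over the surrounding chromosome. The annotation has 31 other genes within 1000000 bases of the cluster, of which 16 are listed in all 3 cell types. In LE, 3 of these 16 rose and 0 fell, beside 6.33% of all genes called higher. SYNJ1, a phosphoinositide phosphatase of membrane traffic at 196230101 to 196330512, was at 71.6, 54.8, 49.1 and 56.4 CPM in control LE and at 604, 386, 522 and 279 CPM in pregnant LE, without overlap. Its log2 FC of 2.95 ± 0.26 (7.71-fold, edgeR FDR = 9.00e-05) lay between those of IFNAR1 and IFNAR2. PAXBP1, beside it at 196336952 to 196371258, rose by 1.56 ± 0.25 (FDR = 0.00177), and TMEM50B, the nearest gene after IFNGR2 at 197048285 to 197093308, by 0.91 ± 0.18 (FDR = 0.00582). The other 13 were not called, and their log2 FC ran from -0.95 (EVA1C) to 0.57 (MRPS6).

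The genes between PAXBP1 and IFNAR2, among them OLIG1 and OLIG2, are not listed in any of the 3 tables. After TMEM50B the sequence of genes DNAJC28, GART, SON, DONSON, CRYZL1 and ITSN1 had log2 FC of 0.24, 0.37, -0.05, 0.24, -0.25 and -0.29 in LE. SON and DONSON, and MRPS6 and SLC5A3, overlap in the annotation, and their counts are uncertain to that extent. In GE and in S none of the 16 was called (edgeR), with 2 in GE and 1 in S at an unadjusted p below 0.05, beside 8.09% and 12.5% of all genes. SYNJ1 had a log2 FC of 0.88 in GE (FDR = 0.482) and of 1.41 in S (FDR = 0.35), where pregnant gilt 05 was again the highest at 325.5 CPM against 100.3 and 81.8 CPM in gilts 01 and 14. In pregnant gilts SYNJ1 was lower in GE than in LE by 2.21 on the log2 scale (-2.21 ± 0.29, FDR = 0.000293). PAXBP1 was also called lower there (-0.98 ± 0.19, FDR = 0.00219), while EVA1C was called higher (1.87 ± 0.46, FDR = 0.00827). In the interaction of GE and LE, PAXBP1 was called (-1.68 ± 0.27, FDR = 0.00773), where 0.15% of genes were called in that direction. SYNJ1 was not called in it (-2.12 ± 0.41, FDR = 0.0167).

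**Figure D5:**
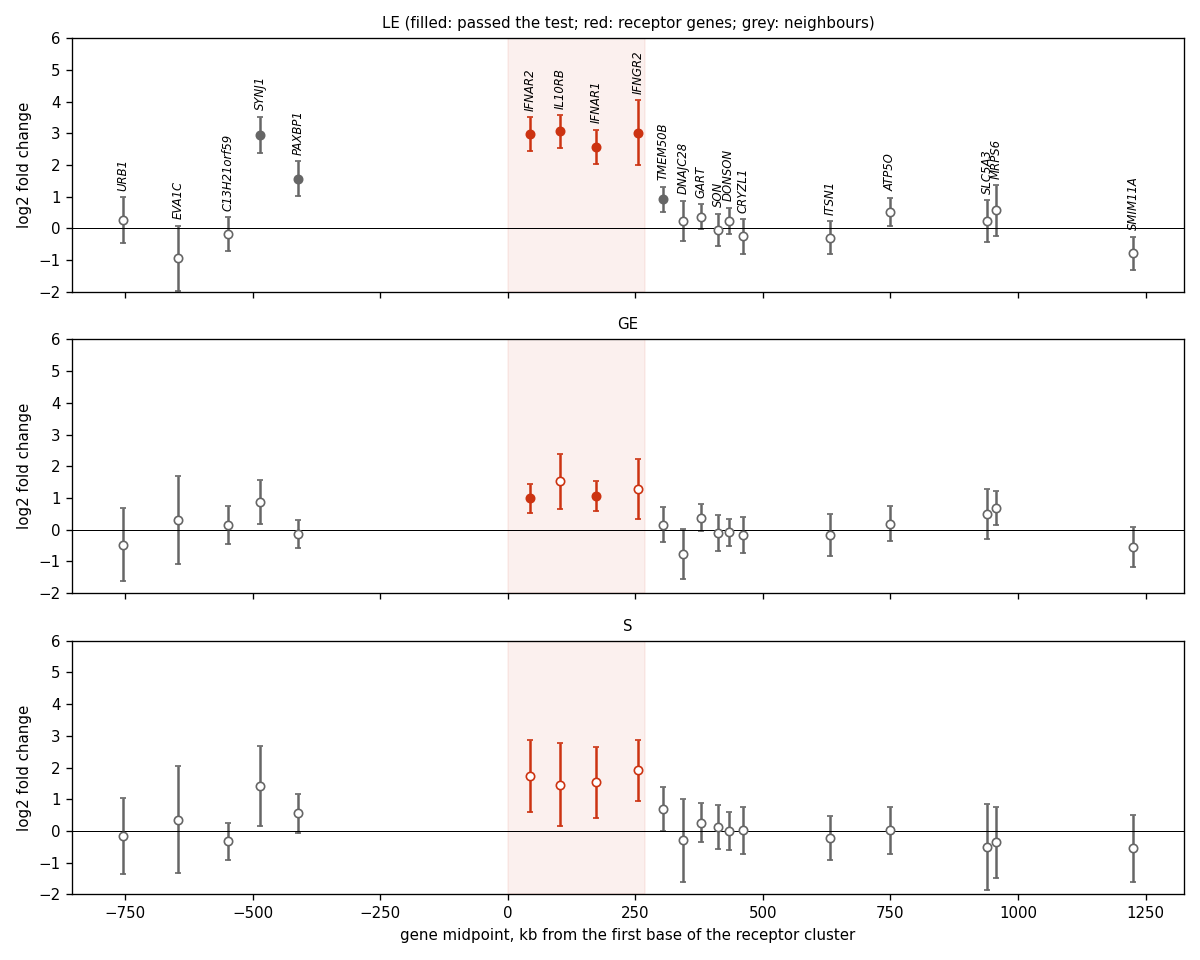
Log2 fold change of pregnant against control gilts with 95% intervals for the 4 receptor genes (red) and their 16 listed neighbours (grey), by the distance in kb of the gene's midpoint from the start of the cluster (shaded), in LE, GE and S. In LE the 4 receptor genes, SYNJ1, PAXBP1 and TMEM50B are filled (passed the test), and values fall to between -0.29 and 0.57 beyond TMEM50B apart from SMIM11A at -0.79.

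Among the partners of these receptors, IFNLR1, which pairs with IL10RB to bind lambda interferons, rose in LE. It was at 5.54, 2.14, 3.48 and 3.91 CPM in control LE and at 30.4, 48.8, 25.7 and 15.9 CPM in pregnant LE, with a log2 FC of 2.99 ± 0.41 (7.97-fold, edgeR FDR = 0.000859). Both chains of that receptor were thus higher in every pregnant LE library. In GE IFNLR1 did not pass the test (log2 FC 0.83, edgeR FDR = 0.718), and it is not listed in S. IL20RA, the partner that joins IL10RB or IL20RB in receptors of the interleukin-20 family, fell by 3.06 on the log2 scale (FDR = 0.00526). Its counts in pregnant LE were 0, 4, 2 and 5 in gilts 01, 03, 05 and 14. These lie around the limit of 3 counts, so the size of the fall is uncertain. IL10RA, which pairs with IL10RB for interleukin-10, had a log2 FC of -1.10 (FDR = 0.102). Of the 20 partner and ligand genes, 6 were listed in LE and 5 each in GE and S. Of the 6 in LE, 1 was called higher and 1 lower, beside 6.33% and 3.71% of all genes. The only interferon among the listed genes was IFNE, a type I interferon made by epithelia of the reproductive tract. IFNE was at 53.4 ± 13.6 CPM (SD) in control LE and at 17.2 ± 10.2 CPM in pregnant LE, and these ranges did not overlap. Its log2 FC was -1.53 ± 0.38 in LE (edgeR FDR = 0.0183), -0.53 ± 0.58 in GE (FDR = 0.851) and -1.98 ± 0.60 in S (FDR = 0.262), and it was called in none of the 3. In S the cytokine IL24 fell by 2.79 on the log2 scale (FDR = 0.114), where 1.05% of genes were called lower.

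Among the STAT genes and their partners, STAT5A (log2 FC 2.14, FDR = 0.000356), STAT4 (2.33, FDR = 0.00596) and STAT5B (0.91, FDR = 0.00491) rose in LE, beside 6.33% of all genes called higher, and IRF9 fell. IRF9, the DNA-binding partner of STAT2 in the complex that type I interferons activate, went from 87.1, 100.2, 82.5 and 70.4 CPM to 22.2, 27.0, 28.4 and 48.4 CPM, a log2 FC of -1.40 ± 0.25 (FDR = 0.00312), where 3.71% of genes were called lower. STAT2 had a log2 FC of -0.81 (FDR = 0.0174) and STAT3 of 0.01. The STAT4 counts in control LE were 3, 13, 7 and 24 in gilts 02, 04, 06 and 13. They reach down to the limit of 3 counts, so the size of the STAT4 rise is uncertain. STAT4 is not listed in GE or S. No gene of this list was called in GE or S, with 0 and 1 of 9 listed genes at an unadjusted p below 0.05. Of all genes, 8.09% in GE and 12.5% in S had such a p, a share close to that of the list in S.

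Among 18 listed negative regulators SOCS4 and PTPN1 rose in LE and SOCS6 and BTRC fell, with log2 FC of 1.06, 1.31, -1.35 and -1.05, beside 6.33% of all genes called higher and 3.71% called lower. PTPN1 is a phosphatase of JAK2 and TYK2, and the SOCS proteins bind activated receptors and kinases. SOCS6 also fell in S (-1.38, FDR = 0.124). IRF2, a repressor at interferon-responsive sites, was the only 1 of 5 listed interferon regulatory factors called in LE (1.38, FDR = 0.00309), a count of 1 beside the same background. IL11RA fell in LE (-1.68, FDR = 0.0021) and was the only 1 of 9 listed receptors that use these kinases without being an interferon receptor to be called there, a share near the background.

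The 23 listed genes of type I interferon output (MX1, OAS and IFIT genes and others) had log2 FC below 0 in LE without exception, with a median of -1.32 against 0.01 over all genes. At an FDR of 1% 0 of them were called (edgeR), and 17 were lower at an unadjusted p below 0.05, beside 16.2% of all genes. IFIT2 (-2.31, FDR = 0.0233), DDX58 (-1.57, FDR = 0.0299) and MX1 (-1.32, FDR = 0.0582) are 3 examples, and the smallest change was that of MX2 (-0.11, FDR = 0.896). In GE OAS1 fell (-3.71, FDR = 0.284), where 0.12% of genes were called lower, and the list's median was -0.44. The OAS1 counts in pregnant GE were 0, 37, 30 and 15 in gilts 01, 03, 05 and 14. Gilt 01 also had 0 counts of OAS1 in LE and S, so the size of the fall is uncertain. In S no gene of the list was called, 3 were lower at an unadjusted p below 0.05, and the median was -0.06. The 16 listed genes of interferon gamma output had a median log2 FC of 0.11 in LE with 0 called (edgeR) and 2 at an unadjusted p below 0.05, beside 35.6% of all genes. In GE 15 of them were listed, with a median of -0.50 and 12 below 0. There 0 were called and 1 had an unadjusted p below 0.05, beside 8.09% of all genes. In S the median of 15 listed genes was 0.01, with 0 called.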

How the data were processed

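Laser capture microdissection isolated LE, GE and S from frozen endometrium of 8 gilts, and 22 libraries were used here. The count tables were deposited as raw read counts per NCBI gene. According to the methods of the study, the authors clipped adapters, mapped reads to Sscrofa11.1 with Hisat2, used the random adapter bases to discard PCR duplicates and dropped genes of low CPM. The counting tool, its use of strand, the Hisat2 version and the CPM limit are not given in the sources used here. The submitters' processing notes name edgeR.

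Members and gene lists were chosen with earlier results of these data known. Gene IDs matched the RefSeq annotation of Sscrofa11.1 for all 11415 (LE), 11676 (GE) and 11532 (S) genes. Counts were scaled by TMM and tested with the quasi-likelihood F test of edgeR 4.0.16 (R 4.3.3) over each whole table. As in the study, calls were made at FDR below 0.01 in LE and at p below 0.0021 in GE and S. In the study, that p matched its FDR of 1% in LE. In the present fit of LE, 1146 genes had an FDR below 0.01 and 1447 a p below 0.0021. The rule for GE and S was thus looser than that for LE. The study reported IFNAR2 and IFNGR2 as upregulated in LE, GE and S, and IFNAR1 in LE and GE. Cell types and the interaction were tested in 1 fit of the 10643 shared genes with the gilt as a fixed block and FDR below 0.01. The numbers pair samples because libraries with 1 number came from 1 gilt. Deviations from group means had a median correlation of 0.257 (GE and LE), 0.468 (GE and S) and 0.314 (LE and S) within gilts, against -0.0754, -0.188 and -0.138 between gilts. The lowest value within a gilt was -0.176, for GE and S. Deviations sum to 0 within a group, so the values between gilts tend below 0 where those within gilts are above 0. Intervals are at 95%. CPM in the pregnancy comparisons are scaled within a table, and levels per kb, correlations and cell type contrasts within the joint fit. Correlations used log2 CPM with a prior count of 2. The fits were tested on simulated counts with known changes. Alternatives were RLE factors or library size alone, other filters, the exact, likelihood ratio and DESeq2 1.42.0 Wald tests, no or random (limma 3.58.1) gilt block, other thresholds, transcript length and leaving out each library or gilt.

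Named genes were the 8 members, the called genes of each signalling list (at most 6 per cell type), all listed genes within 1000000 bases of the cluster and the 3 genes most correlated with each member. Other genes (IL10RA, IFNE, STAT2, STAT3, IFIT2, DDX58, MX1 and MX2, and the markers) were picked after their values were seen. 1 gene of the signalling lists is not reported here. Replicates are separate gilts. Library totals were 893912 to 4020796, and counting limits cover counting error only.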

Additional observations from a re-analysis of the deposited data

Results flagged for a closer look

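The IFNGR1 level of control GE gilt 02 was 45.7 CPM, apart from the 21.4 to 23.4 CPM of the other control GE libraries (gap of 0.918 of the range, Dixon limit 0.829). That library also had the lowest epithelial sum, 925.6 CPM, and a fibroblast sum of 49150 CPM, and the part of these in the value was not tested. The IFNGR1 level of pregnant GE gilt 14 was 67.5 CPM, apart from 38.3 to 42.3 CPM in the other pregnant GE libraries (gap of 0.863 of the range). Its fibroblast sum was 11110 CPM, the lowest of pregnant GE. Chance alone marks about 1 in 20 groups, and 32 groups of 4 libraries were examined.

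The pregnancy effect on IFNAR2 differed between GE and LE, with an interaction of -1.99 on the log2 scale (edgeR FDR = 0.00538). IFNAR2 was higher in every pregnant than in every control library in both cell types, so that the difference is one of size and not of direction.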

How the results depend on the processing

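The count of 4 members called in LE and of 4 lower in pregnant GE than in LE stayed within 1.5 times under every alternative run, with 4 and 3 to 4 when single libraries or gilts were left out. In GE, where 2 were called, leaving out 1 library gave 0 to 3, the 6 gilts with an S library gave 0, and an FDR below 0.05 gave 0. In S, where 0 were called, the exact test, the likelihood ratio test and DESeq2 gave 2 each, and leaving out 1 library gave 0 to 1. Over all genes in S, these tests called 428, 463 and 512. For S against LE in pregnant gilts, where 2 were called, the fit with no replicate block gave 0, the likelihood ratio test 4, an FDR below 0.05 4, and leaving out 1 gilt 0 to 3. Over all 10643 genes, that test called 1092 and an FDR below 0.05 called 1551. For the interaction of GE and LE, where 1 was called, the fit with no replicate block gave 0, the likelihood ratio test 2, an FDR below 0.05 2, and leaving out 1 gilt 0 to 1. Here the likelihood ratio test called 322 of all genes and an FDR below 0.05 called 312. The fit with no replicate block changed no other count of calls, and the random block gave 3 for S against LE in pregnant gilts. The cause of these shifts was not tested. Some values near 0 that passed no test changed sign. IFNGR1 in LE was -0.0912 with library size alone, -0.0112 with at least 10 counts in every library and -0.0865 in the 6 gilts, and leaving out 1 library gave -0.104 to 0.165. Leaving out 1 library gave -0.418 to 0.026 for JAK2 and -0.127 to 0.0842 for TYK2 in GE, and -0.228 to 0.435 for TYK2 in S. Of the other single values under the alternatives, 699 kept their direction and side of the threshold, 24 fell short of it and 19 passed it. The shallowest library, pregnant LE gilt 01, held 893912 counts, and its smallest member count was 24.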
